A study of Mus musculus with 4 samples.

Results

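The 41 genes described here encode the machinery of DNA replication and of mitosis, and they were chosen by name from 31053 genes measured. In the grouping used here, 22 act at or before DNA synthesis (S-phase members) and 19 act from the end of replication through mitosis (mitotic members). The mini-chromosome maintenance proteins Mcm2 to Mcm7 form the helicase that opens DNA at origins, Pcna is the sliding clamp of the DNA polymerases, and cyclin E (Ccne1, Ccne2) with Cdk2 drives entry into S phase. Cyclin B (Ccnb1, Ccnb2) with Cdk1 drives entry into mitosis, and the anaphase-promoting complex, with its activator Cdc20 and its ubiquitin-conjugating enzyme Ube2c, ends it by marking cyclin B and other proteins for destruction. Transcription of the first set is known to be switched on by E2F factors in late G1, and that of the second by complexes that read CHR and CCAAT elements in G2. Bone marrow (BM) macrophages divide in culture when given macrophage colony-stimulating factor (M-CSF).

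BM macrophages were grown with M-CSF, moved to low serum, and cultured for 16 to 18 h with RM1 cells, a mouse prostate cancer line. The RM1 cells had been killed by ultraviolet light and labeled with the dye CFSE. The macrophages came from C57BL/6J mice, male and 4 to 6 weeks old by the methods. Cells positive for the macrophage protein F4/80 and for CFSE were sorted as efferocytic, that is, as having taken up RM1 material. Cells positive for F4/80 only were sorted as non-efferocytic. The paper's discussion describes these controls as macrophages alone, while its methods do not say whether their cultures held RM1 cells. If the controls were cultured alone, the groups differ in the presence of apoptotic cells as well as in uptake, which cannot be told apart. Each of 2 experiments gave 1 library per group by 10X Genomics 3′ single-cell sequencing. Nothing in the labels says that the experiments used separate animals. The p-values of the main fit measure only the spread left among these 4 libraries once the difference between experiments is removed. That spread was estimated partly from other genes.

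Cells were barcodes with at least 200 genes, at least 1000 unique molecular identifiers (UMIs, counted molecules) and at most 10% mitochondrial UMIs. Experiment 1 gave 8280 cells without uptake and 6695 with it, and Experiment 2 gave 13411 and 8408, with 101216659 to 155224183 UMIs per library. Efferocytic cells gave more UMIs, with medians of 17171 and 17476 UMIs per cell against 11146 and 9600, and RNA per cell and sequencing depth per cell cannot be told apart in these counts. A level in CPM below is UMIs per 1000000 UMIs in the cells of a library. All 10 macrophage markers examined were above 1 CPM in every library. The libraries were not equal in other cells: 5 granulocyte progenitor markers (Elane, Mpo, Prtn3, Ctsg and Ms4a3) summed to 73.8 and 106 CPM in the non-efferocytic libraries against 23.3 and 39.7 in the efferocytic ones, and 7 neutrophil markers to 3012 and 3299 against 943 and 688. The study's materials list RM1 as fibroblast-like, and 8 fibroblast markers summed to 147 and 123 CPM without uptake against 47.4 and 53.3 with it. A set of 10 epithelial genes, chosen here as possible markers of RM1, summed to 1.02 and 0.16 CPM in Experiment 1 and 11.6 and 9.43 in Experiment 2 (non-efferocytic, then efferocytic). Of these, 3 (Krt8, Cldn3 and Cldn4) had no UMI in either library of Experiment 1, nor had Cdh1 in its non-efferocytic library. Neither list was higher with uptake, so neither can serve as a measure of RM1 RNA in these cells, and the part of RM1 RNA in the results was not tested. The 2 libraries of Experiment 2 shared 118 cell barcodes, where 16.6 would be shared by random draw, and other pairs shared 14 to 23.

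The start regions of the genes whose results stand out are shown first, because S-phase and mitotic genes are known for different elements there. RefSeq promoter windows (GRCm38.p6, the 250 bases before and 50 after a transcription start) were at hand for 35 of the 41 members, 19 S-phase and 16 mitotic. They were searched on both strands for the E2F-type words TTTCCCGC, TTTCGCGC, TTTGCCGC and TTTGGCGC, for the CHR words TTTGAA and TTTAAA, and for CCAAT. An E2F-type word stood in the windows of 8 of 19 S-phase members (42.1%) and 1 of 16 mitotic members (6.25%, Cdk1), beside 2.60% of all 27025 genes in the table. A CHR word stood in 7 S-phase members (36.8%) and 14 mitotic members (87.5%), beside 30.6% of all genes, and CCAAT in 14 (73.7%) and 14 (87.5%), beside 41.1%. A match is a run of letters and not a shown binding site. The windows below belong to the pair of helicase subunits with the largest rise (Mcm2, Mcm5) and to 3 mitotic genes that moved in unlike ways (Ube2c, Ccnb2 and Ccnb1), with matched words in capitals and each read 5′ to 3′ along the gene.
Mcm2: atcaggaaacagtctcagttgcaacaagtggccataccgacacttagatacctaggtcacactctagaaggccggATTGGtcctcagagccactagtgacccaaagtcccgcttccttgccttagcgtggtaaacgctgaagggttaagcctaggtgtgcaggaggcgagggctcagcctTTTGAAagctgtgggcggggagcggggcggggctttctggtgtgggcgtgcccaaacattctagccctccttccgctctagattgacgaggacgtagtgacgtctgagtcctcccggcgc
Mcm5: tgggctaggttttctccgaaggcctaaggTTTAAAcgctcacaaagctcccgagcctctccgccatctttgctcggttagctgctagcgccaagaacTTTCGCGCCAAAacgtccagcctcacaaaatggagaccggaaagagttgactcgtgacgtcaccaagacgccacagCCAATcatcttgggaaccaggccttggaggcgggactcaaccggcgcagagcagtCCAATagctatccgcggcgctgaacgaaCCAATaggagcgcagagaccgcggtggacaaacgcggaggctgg
Ube2c: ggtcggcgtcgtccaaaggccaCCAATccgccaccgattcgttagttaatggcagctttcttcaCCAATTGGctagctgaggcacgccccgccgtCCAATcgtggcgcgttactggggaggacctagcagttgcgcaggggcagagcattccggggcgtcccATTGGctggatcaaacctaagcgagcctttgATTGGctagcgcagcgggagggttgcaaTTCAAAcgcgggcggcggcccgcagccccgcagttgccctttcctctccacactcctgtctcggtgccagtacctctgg
Ccnb2: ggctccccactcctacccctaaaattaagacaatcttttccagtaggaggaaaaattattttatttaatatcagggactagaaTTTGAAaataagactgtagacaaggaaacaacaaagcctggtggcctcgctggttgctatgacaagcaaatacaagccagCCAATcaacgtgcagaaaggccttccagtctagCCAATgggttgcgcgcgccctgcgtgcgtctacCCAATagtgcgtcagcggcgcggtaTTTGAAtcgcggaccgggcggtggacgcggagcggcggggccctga
Ccnb1: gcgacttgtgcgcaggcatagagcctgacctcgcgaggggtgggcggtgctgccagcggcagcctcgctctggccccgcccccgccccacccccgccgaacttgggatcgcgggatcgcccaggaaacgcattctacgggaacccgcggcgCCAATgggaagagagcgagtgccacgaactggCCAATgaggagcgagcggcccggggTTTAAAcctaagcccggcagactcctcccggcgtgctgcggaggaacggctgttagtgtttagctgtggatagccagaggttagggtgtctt

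These windows lie at chr6:88898731-88899030 (minus strand) for Mcm2, chr8:75109259-75109558 (plus strand) for Mcm5, chr2:164769679-164769978 (plus strand) for Ube2c, chr9:70421505-70421804 (minus strand) for Ccnb2 and chr13:100786437-100786736 (minus strand) for Ccnb1. In Mcm5, TTTCGCGC starts 153 bases before the transcription start and overlaps a TTTGGCGC on the opposite strand, so both are 1 stretch of 12 bases. Mcm2 holds no E2F-type word of these letters in its window. Ube2c holds a TTTGAA on the opposite strand, which starts 29 bases before the transcription start in the printed direction, and 6 CCAAT words, 2 of which overlap on opposite strands. Ccnb2 holds 3 CCAAT words in the sense direction that start 87, 54 and 21 bases before the start, and Ccnb1 holds 2, at 99 and 67 bases, with a TTTAAA at 42 bases. The paralogs Ccnb1 and Ccnb2 therefore share both kinds of element, and they are compared further on.

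All 41 members passed the filter on low counts, and none had fewer than 125 UMIs in any library. Among the 22 S-phase members, 15 rose in efferocytic cells and 0 fell (edgeR quasi-likelihood test with the experiment as a block, Benjamini-Hochberg adjusted over 13869 genes, threshold 0.05), where 19.9% of all genes tested were called higher and 19.0% lower. Their median log2 fold change, efferocytic over non-efferocytic, was 0.46, beside -0.02 over all genes. Of the 19 mitotic members 3 rose, 3 fell and 13 did not pass, both below the shares of all genes, and their median was -0.01. In CPM, both efferocytic libraries lay above both non-efferocytic ones for 12 S-phase and 2 mitotic members, beside 22.2% of all genes, and below them for 0 and 5, beside 44.7%. Leaving out 1 library also meant leaving out the block, which 3 libraries cannot hold, so both changed at once. Without the non-efferocytic library of either experiment 0 members were called (10 and 13 members at an unadjusted p under 0.05, and 2 and 0 genes called in all), without the efferocytic library of Experiment 2 there were 3 higher S-phase and 2 lower mitotic members, and without that of Experiment 1 there were 14 and 1, with 5 mitotic members higher. Of all genes the fit without the efferocytic library of Experiment 2 called 4.44% higher and 4.04% lower, and that without the one of Experiment 1 called 11.5% and 8.86%. The S-phase median in these fits was 0.40 and 0.56 without the non-efferocytic library of Experiment 1 and 2, and 0.68 and 0.23 without the efferocytic one. With all 4 libraries and no block, where 9.27% of all genes were called higher and 7.74% lower, 7 S-phase members rose, 0 mitotic members rose and 1 fell, while DESeq2 called 11, 2 and 2, beside 10.9% of all genes higher and 7.16% lower. These log2 fold changes are relative to the total of a library as scaled by TMM; scaled to library totals alone the median of all genes was -0.12, and as UMIs per cell it was 0.60, where all 22 S-phase members and 9 of the 19 mitotic members were called higher and 0 lower, beside 49.9% of all genes higher and 4.23% lower.

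**Figure D1:**
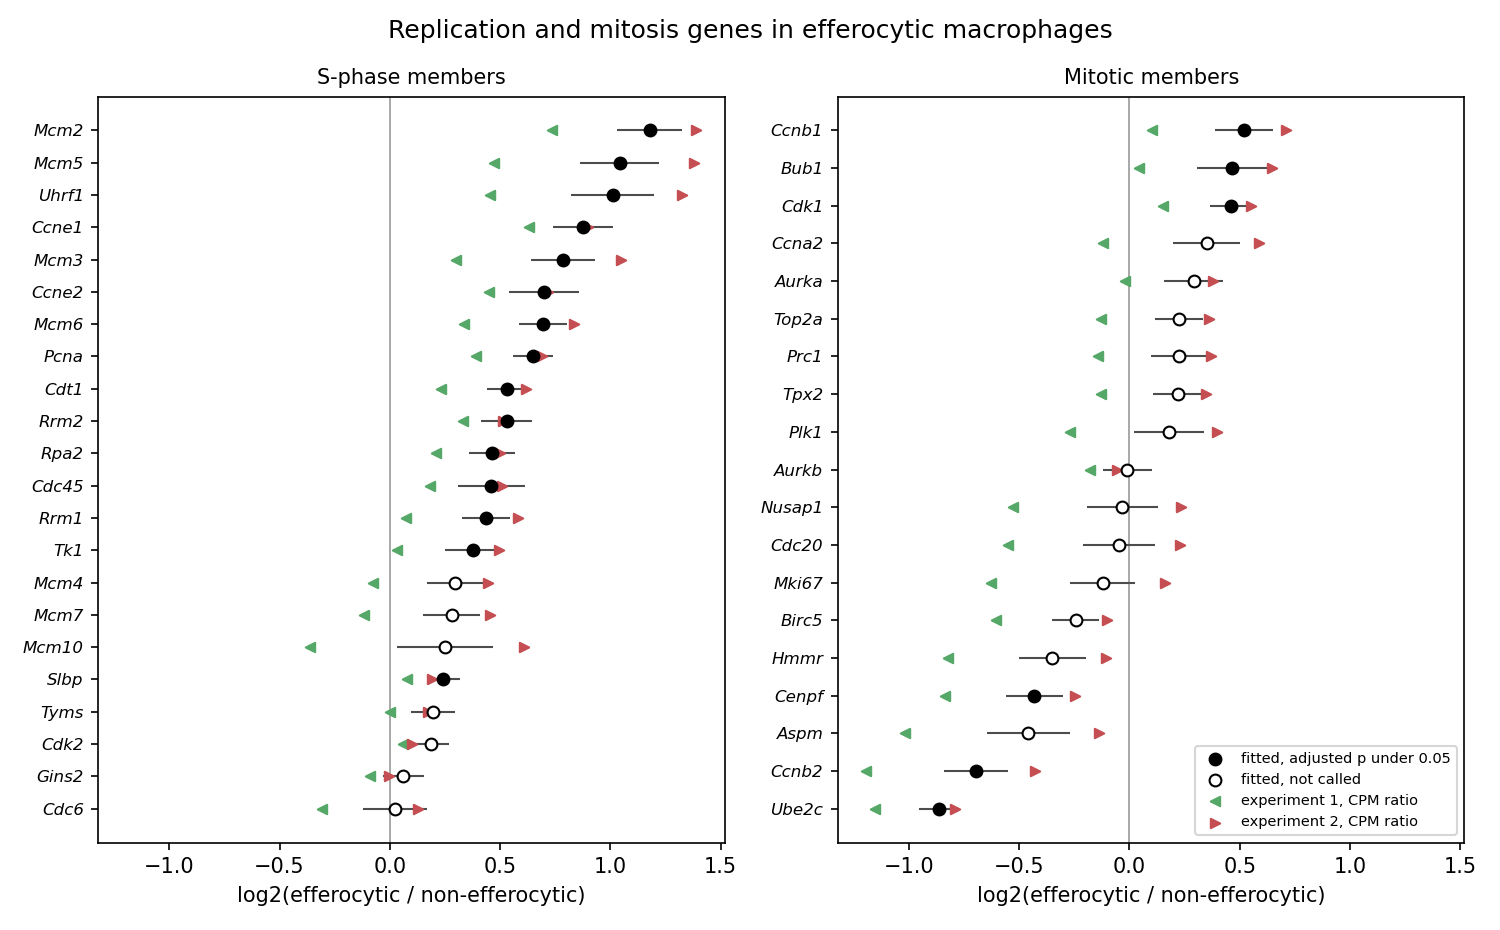
Log2 fold change of each member, efferocytic over non-efferocytic; circles are fitted values with standard errors over 4 libraries (filled, adjusted p under 0.05), and triangles are the CPM ratios of Experiment 1 (pointing left) and Experiment 2 (pointing right). All 22 S-phase members have a fitted value above 0, and the mitotic members spread from -0.86 (Ube2c) to 0.52 (Ccnb1). The Experiment 2 ratio lies to the right of the Experiment 1 ratio for every member, as for 8931 of all 13869 genes tested.

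Mcm2 and Mcm5, subunits of the MCM helicase, had the largest fitted values of the 41 members. Mcm2 stood at 4.61 and 4.92 CPM in the non-efferocytic libraries (Experiments 1 and 2) and at 7.67 and 12.9 CPM in the efferocytic ones. The groups did not overlap, and the change was larger in Experiment 2. The log2 fold change of Mcm2 was 1.18 ± 0.15 (SE, n = 2 libraries per group, adjusted p = 0.000839 by edgeR). Mcm5 went from 6.37 and 5.98 CPM to 8.84 and 15.6 CPM, also without overlap, with a log2 fold change of 1.04 ± 0.18 (adjusted p = 0.00317 by edgeR). Mcm3 had 13.6 and 12.0 CPM without uptake and 16.7 and 24.8 CPM with it, a log2 fold change of 0.78 ± 0.14 (adjusted p = 0.00437 by edgeR). Mcm6 had 14.1 and 14.6 against 17.8 and 25.9 CPM, a log2 fold change of 0.69 ± 0.11 (adjusted p = 0.00227 by edgeR). The other subunits of the same ring did not pass: Mcm4 (0.30 ± 0.13, adjusted p = 0.0977 by edgeR) and Mcm7 (0.28 ± 0.13, adjusted p = 0.119 by edgeR) had lower CPM in the efferocytic library of Experiment 1 and higher CPM in that of Experiment 2. Mcm2, 3, 5 and 6 were thus called and Mcm4 and 7 were not, a difference between subunits that was not itself tested. With 10% of UMIs removed as free RNA, read from barcodes under 100 UMIs, the calls of Mcm5 (adjusted p = 0.0503 by edgeR) and Mcm3 were lost. Those of Mcm2 (adjusted p = 0.0298 by edgeR) and Mcm6 stayed.

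The proteins that load and start the helicase were split. Cdt1, which brings the MCM ring to origins, rose by 0.53 ± 0.09 on the log2 scale (21.2 and 20.9 against 24.8 and 32.1 CPM). Cdc6, its partner in loading, stood at 3.32 and 2.89 against 2.68 and 3.16 CPM. Its log2 fold change of 0.02 ± 0.15 was the smallest of the S-phase members (adjusted p = 0.915 by edgeR), and its groups overlapped. Gins2 and Cdc45 are parts of the active helicase. Gins2 had 9.08 and 10.6 against 8.53 and 10.6 CPM (0.06 ± 0.09, adjusted p = 0.633 by edgeR), while Cdc45 was called at 0.46 ± 0.15 (adjusted p = 0.0453 by edgeR) with overlapping groups. Mcm10, which helps to activate the helicase, had a log2 fold change of 0.25 ± 0.22 and was not called.

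At the fork, Pcna stood at 88.6 and 87.5 CPM in the non-efferocytic libraries and at 116 and 141 CPM in the efferocytic ones. The non-efferocytic mean of 88.0 ± 0.803 CPM (SD, n = 2) lay well below the efferocytic mean of 129 ± 17.9 CPM, and the log2 fold change was 0.65 ± 0.09 (adjusted p = 0.0014 by edgeR). Uhrf1, which recruits the maintenance DNA methyltransferase to new DNA, rose by 1.01 ± 0.19, and Rpa2, a subunit of the single-strand binding protein, by 0.46 ± 0.10. Of the enzymes that supply nucleotides, both subunits of ribonucleotide reductase rose (Rrm1 by 0.44 ± 0.11 and Rrm2 by 0.53 ± 0.11) and thymidine kinase, Tk1, passed narrowly (0.38 ± 0.13, adjusted p = 0.0488 by edgeR). Thymidylate synthase, Tyms, did not (0.20 ± 0.10, adjusted p = 0.154 by edgeR). Slbp, which binds histone mRNA, rose by 0.24 ± 0.07, the smallest called change among the S-phase members. The groups overlapped in CPM for Rrm2, Tk1 and Slbp. Without the block Pcna was still called, but Uhrf1, Rpa2, Rrm1, Rrm2, Tk1 and Slbp were not.

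The cyclins that open S phase rose while their kinase did not pass. Ccne1 had 1.98 and 2.33 against 3.06 and 4.34 CPM, a log2 fold change of 0.88 ± 0.14 (adjusted p = 0.00221 by edgeR), and Ccne2 rose by 0.70 ± 0.16 from 1.24 and 1.51 CPM. Cdk2 stood at 14.1 and 14.7 against 14.7 and 15.8 CPM. Its 4 libraries did not overlap between groups, yet its log2 fold change of 0.19 ± 0.08 was not called (adjusted p = 0.105 by edgeR).

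**Figure D2:**
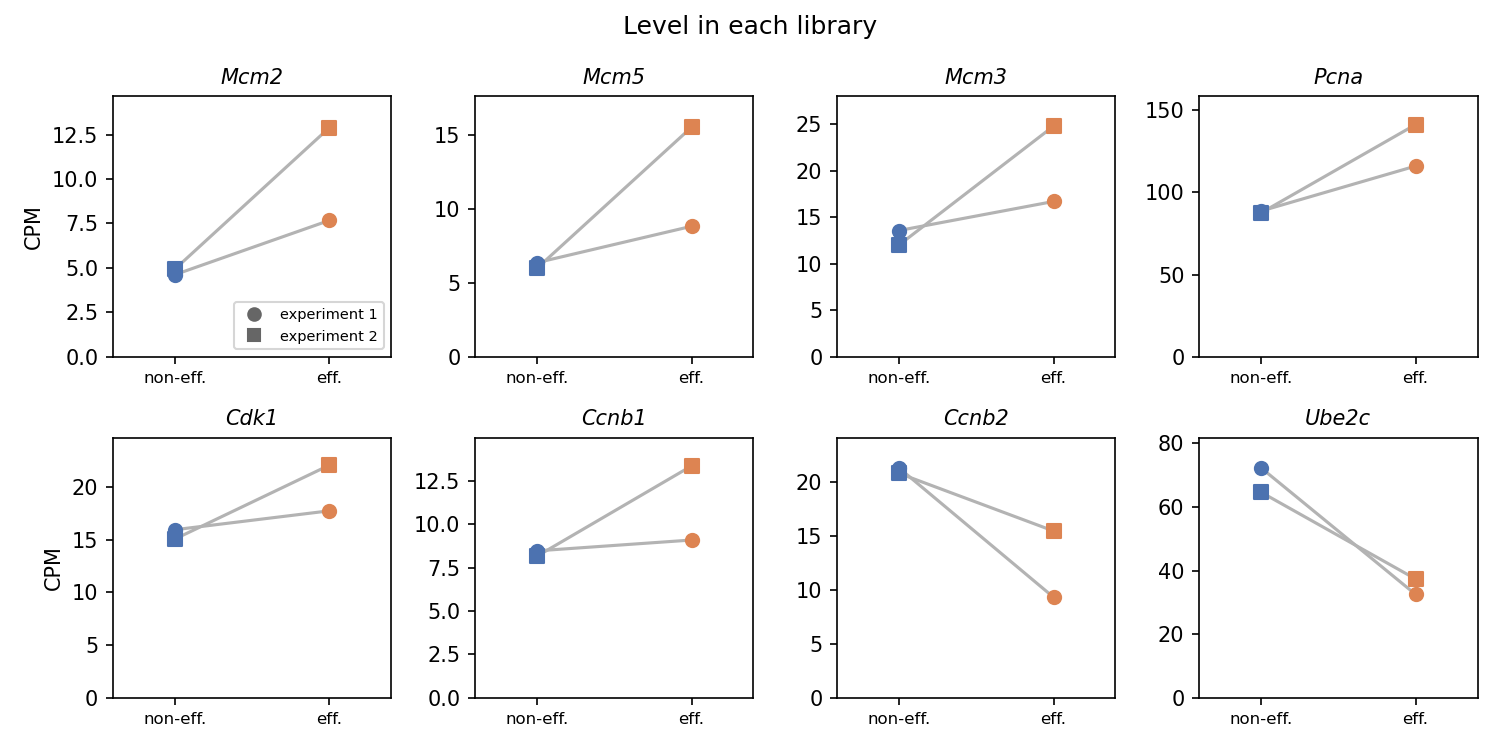
Level in CPM (axis from 0) of 8 members with full statistics in each library, with gray lines joining the libraries of an experiment (circles, Experiment 1; squares, Experiment 2). Mcm2, Mcm5, Mcm3, Pcna, Cdk1 and Ccnb1 lie higher, and Ccnb2 and Ube2c lower, in both efferocytic libraries; the lines of Ccnb1 and Cdk1 are nearly flat in Experiment 1.

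Among the mitotic members, the kinase of mitotic entry and 1 of its cyclins rose. Ccnb1 stood at 8.46 and 8.15 CPM in the non-efferocytic libraries and at 9.08 and 13.3 CPM in the efferocytic ones, a log2 fold change of 0.52 ± 0.13 (adjusted p = 0.0175 by edgeR). Cdk1 had 15.9 and 15.0 against 17.7 and 22.1 CPM, a log2 fold change of 0.46 ± 0.10 (adjusted p = 0.00812 by edgeR). Neither gene overlapped between groups, and both changes came mostly from Experiment 2. By edgeR the Cdk1 call was lost without the block (adjusted p = 0.0527) and after removal of 10% of UMIs as free RNA (adjusted p = 0.0565). Bub1, a kinase of the spindle checkpoint, was called at the edge of the threshold (0.46 ± 0.16, adjusted p = 0.0497 by edgeR) with overlapping groups. Ccna2, the cyclin shared by S phase and G2, was not called (0.35 ± 0.15, adjusted p = 0.103 by edgeR).

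Ube2c and Ccnb2 went the other way. Ube2c, which hands ubiquitin to the targets of the anaphase-promoting complex, stood at 72.3 and 64.6 CPM in the non-efferocytic libraries and at 32.5 and 37.4 CPM in the efferocytic ones. Every efferocytic library was below every non-efferocytic one, and in both experiments the change was large beside the gap between the libraries of a group. Ube2c fell by 0.86 ± 0.09 on the log2 scale (adjusted p = 0.000382 by edgeR), although as UMIs per cell its log2 fold change was -0.25 and not called. Ccnb2 stood at 21.3 and 20.8 against 9.31 and 15.4 CPM and fell by 0.70 ± 0.15 (adjusted p = 0.00787 by edgeR), and as UMIs per cell it too was not called (-0.08). The paralogs Ccnb1 and Ccnb2 were therefore called in opposite directions in this fit, but neither was called without the block (adjusted p = 0.0915 for Ccnb1 and 0.0937 for Ccnb2 by edgeR) or with 10% of UMIs removed as free RNA (adjusted p = 0.106 and 0.0766 by edgeR), and leaving out any 1 library took the call from at least 1 of them. Cenpf, a kinetochore protein, had 13.1 and 10.6 against 7.34 and 8.90 CPM and fell by 0.43 ± 0.13 (adjusted p = 0.0324 by edgeR), a sign that turned to 0.19, not called, as UMIs per cell. DESeq2 did not call the fall of Cenpf (adjusted p = 0.0734 by DESeq2). By edgeR its call was lost without the block (adjusted p = 0.0948) and after removal of free RNA (adjusted p = 0.108).

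The remaining mitotic members did not pass. Aurkb, the kinase of the chromosomal passenger complex, had 5.54 and 6.32 against 4.90 and 6.08 CPM (-0.01 ± 0.11, adjusted p = 0.951 by edgeR). Nusap1, a spindle microtubule protein, had 7.27 and 6.14 against 5.05 and 7.23 CPM (-0.03 ± 0.16, adjusted p = 0.888 by edgeR). Cdc20 had 7.50 and 6.04 against 5.11 and 7.09 CPM (-0.05 ± 0.16, adjusted p = 0.835 by edgeR). In Nusap1 and Cdc20 the experiments pointed in opposite directions, so the small fitted value is the mean of unlike values. The proliferation marker Mki67 showed the same, with 26.3 against 17.0 CPM in Experiment 1 and 21.5 against 24.1 CPM in Experiment 2. Birc5, Hmmr and Aspm had fitted values of -0.24, -0.35 and -0.46, and were called lower when libraries were scaled to their totals without TMM. Aurka, Top2a, Prc1, Tpx2 and Plk1, which are spindle kinases and proteins and the chromosome-untangling topoisomerase, had fitted values of 0.18 to 0.29. In all, 14 members (5 S-phase and 9 mitotic) had CPM ratios of opposite sign in the 2 experiments, a pattern shown by 19.5% of all genes tested. These ratios are not scaled by TMM. Their median over all genes was -0.16 in Experiment 1 and -0.08 in Experiment 2 on the log2 scale. For Mcm4, Mcm7, Tyms, Ccna2, Aurka, Top2a, Prc1 and Tpx2 the Experiment 1 ratio was negative but above that median.

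The balance of the member sums shifted in the same direction in both experiments. The S-phase members summed to 268 and 277 CPM in the non-efferocytic libraries and to 317 and 422 CPM in the efferocytic ones, and the mitotic members to 279 and 263 against 187 and 259 CPM. The ratio of mitotic to S-phase UMIs was 1.04 and 0.95 in non-efferocytic cells and 0.590 and 0.613 in efferocytic cells, a log2 change of -0.82 in Experiment 1 and -0.63 in Experiment 2. In CPM the lower ratio of Experiment 1 came mostly from the mitotic sum (log2 change -0.58, S-phase 0.24). That of Experiment 2 came from the S-phase sum (0.61, mitotic -0.02). The median log2 CPM ratio of all genes was -0.16 in Experiment 1 and -0.08 in Experiment 2. As UMIs per cell the S-phase sum changed by 0.85 and 1.45 and the mitotic sum by 0.03 and 0.82. Which sum carried the shift in Experiment 1 thus depends on the scale. Ube2c alone accounted for 72.3 of the 279 CPM of the mitotic sum in the non-efferocytic library of Experiment 1 and for 32.5 of 187 CPM in its efferocytic counterpart, and for 64.6 of 263 and 37.4 of 259 CPM in Experiment 2. Without Ube2c, an alternative added after the data were seen, the mitotic sum went from 207 to 155 CPM in Experiment 1 (log2 change -0.42) and from 198 to 221 CPM in Experiment 2 (0.16), and the ratio of mitotic to S-phase UMIs changed by -0.66 and -0.45 on the log2 scale. The ratio is a score over chosen members and was given no test. Under the other choices of cells it stayed between -0.90 and -0.76 in Experiment 1 and between -0.68 and -0.60 in Experiment 2, including cells without a UMI of other blood or fibroblast markers.

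The members were next counted cell by cell. Each cell was thinned to 5000 UMIs, because efferocytic cells were deeper; 1099, 544, 3404 and 505 shallower cells were left out (non-efferocytic and efferocytic, Experiment 1 and then 2), which left 7181, 6151, 10007 and 7903. A cell with at least 4 S-phase members detected was called S-high, and one with at least 4 mitotic members mitotic-high. These are ranges of a count and not cell types. A higher level in each cell can also carry cells over the limit, so a larger share does not separate more cells from more RNA per cell. S-high cells made up 2.60% of non-efferocytic and 4.55% of efferocytic cells in Experiment 1 (95% exact binomial intervals 2.25 to 3.0 and 4.04 to 5.10) and 3.13% and 8.36% in Experiment 2 (2.80 to 3.49 and 7.76 to 9.0). The intervals cover counting error only. Mitotic-high cells made up 3.95% and 2.67% in Experiment 1 (3.52 to 4.43 and 2.28 to 3.1) and 4.2% and 4.61% in Experiment 2 (3.81 to 4.61 and 4.15 to 5.09). The S-high share was thus larger in both efferocytic libraries, while the mitotic-high share was smaller in Experiment 1 and, in Experiment 2, had overlapping intervals. The mitotic count includes Ube2c, detected in 20.2% and 19.4% of non-efferocytic cells but 6.89% and 8.41% of efferocytic ones. That lifts the non-efferocytic share, and a share without Ube2c is not given. The log2 ratio of the mitotic-high share in Experiment 2 was 0.13, but -0.03 with a limit of 3 members. It was 0.35 with a limit of 6 and 0.36 after thinning to 2500 UMIs. Without thinning the S-high shares were 17.8% and 35.6%, and 15.2% and 43.6%, and the mitotic-high shares 6.07% and 5.05%, and 5.79% and 9.21%. The S-high class lies close to its limit: 407 to 726 cells per library had 3 S-phase members, and 96 to 236 had 4.

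**Figure D3:**
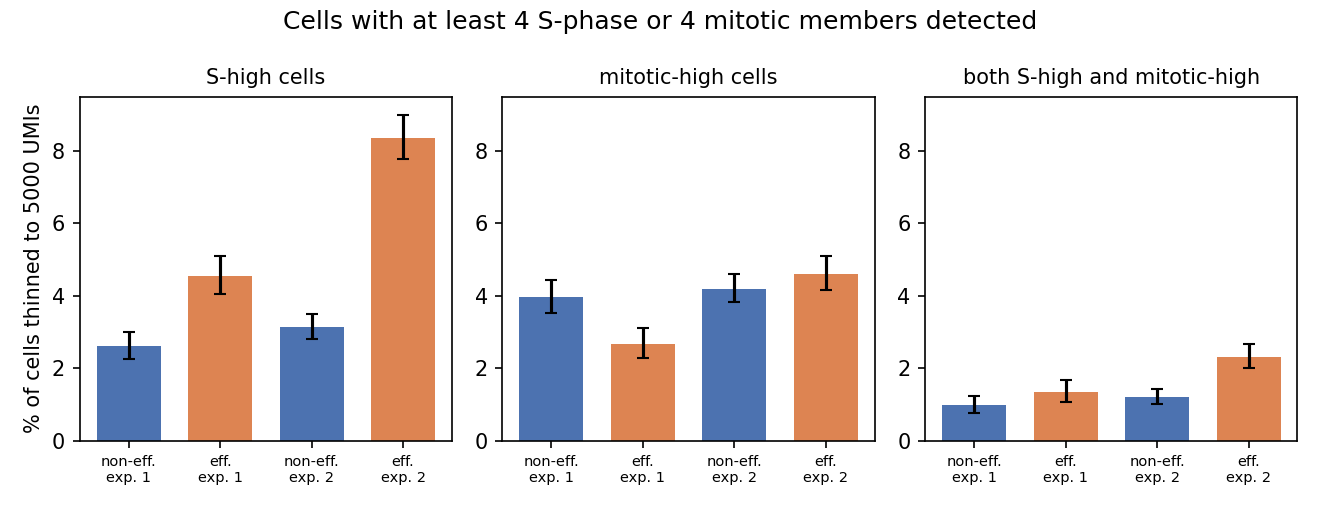
Share of cells, after thinning to 5000 UMIs, with at least 4 S-phase members, at least 4 mitotic members, or both; bars are libraries (blue non-efferocytic, orange efferocytic) and whiskers 95% exact binomial intervals for counting error. S-high shares are 2.60% and 3.13% without uptake and 4.55% and 8.36% with it, while the mitotic-high share is lower with uptake in Experiment 1 (3.95% and 2.67%) and has overlapping intervals in Experiment 2.

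Cells high in both lists made up 0.975% and 1.35% in Experiment 1 and 1.20% and 2.32% in Experiment 2. At least 3 macrophage markers were present in 80.0% and 70.8% of them in the non-efferocytic libraries and in 89.2% and 90.7% in the efferocytic ones. A granulocyte progenitor marker was present in 45.7% and 50% of them in the non-efferocytic libraries, against 14.5% and 9.29% in the efferocytic ones. Among all cells with such a marker (84, 31, 269 and 37 cells in the order above), 46.4%, 45.2%, 27.5% and 51.4% were mitotic-high, beside 3.42%, 2.44%, 3.56% and 4.39% of the cells with neither a progenitor marker nor 3 neutrophil markers. Without any cell that held a UMI of the other blood or fibroblast lists, which kept 5801, 4660, 5447 and 6316 cells, 18 S-phase members rose and 0 fell, and 7 mitotic members rose and 4 fell, beside 19.4% of all genes called higher and 19.1% lower in that fit. In those cells the log2 ratio of the S-high share, efferocytic over non-efferocytic, was 1.39 and 1.68, where all cells gave 0.81 and 1.42, and that of the mitotic-high share -0.19 and 0.33, where all cells gave -0.57 and 0.13.

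Summed over members, mitotic RNA was concentrated in fewer cells than S-phase RNA. Pcna held much of the S-phase sum, 88.6 of 268 and 87.5 of 277 CPM without uptake. With uptake it held 116 of 317 and 141 of 422 CPM. Single members differed. Rrm2 had 62.2% to 72.4% of its UMIs in mitotic-high cells. For Ube2c that share was 35.2% and 31.6% without uptake and 62.9% and 68.3% with it. Free RNA was not subtracted from these shares. The 10% of cells with the most mitotic UMIs held 74.0% and 71.8% of them in the non-efferocytic libraries and 81.6% and 82.7% in the efferocytic ones, whereas the same share of cells held 35.8% to 41.1% of S-phase UMIs. No mitotic member was detected in 63.3% and 62.2% of non-efferocytic cells and in 75.2% and 70.3% of efferocytic cells. The reverse held for the S-phase members, which were undetected in 34.3% and 33.5% against 29.6% and 24.0%. Mitotic-high cells carried 18.1 and 15.4 mitotic UMIs each without uptake and 19.6 and 18.4 with it. Cells that were neither S-high nor mitotic-high carried 0.508 and 0.527 mitotic UMIs without uptake and 0.271 and 0.341 with it, and 1.07 and 1.07 S-phase UMIs against 1.22 and 1.38. Ube2c weighs on these mitotic values and on the share of cells without a mitotic member. It was detected in 20.2% and 19.4% of cells without uptake and in 6.89% and 8.41% with it. Ccnb1 went the other way, from 2.41% and 2.51% to 3.15% and 5.02%. Values without Ube2c are not given, so the fall is not read as one of all mitotic members.

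UMIs of Ube2c were fewer with uptake outside the mitotic-high cells. Cells were divided by whether they held at least 4 mitotic members other than the gene looked at, so that the gene itself played no part. In cells with at least 4 others, Ube2c stood at 3281 and 2415 UMIs per 1000 cells without uptake and at 3443 and 2688 with it, log2 ratios of 0.07 and 0.15. In the remaining cells it stood at 238 and 229 UMIs per 1000 cells without uptake and at 55.1 and 63.5 with it, log2 ratios of -2.11 and -1.85. A Ube2c UMI was found in 18.1% and 17.3% of those remaining cells without uptake, and in 4.97% and 5.32% with it. They held 66.9% and 71.8% of all Ube2c UMIs in the non-efferocytic libraries, against 37.8% and 34.0% in the efferocytic ones. Free RNA, read from barcodes under 100 UMIs, held Ube2c at 62.4 and 57.0 CPM in the non-efferocytic libraries and 54.7 and 34.5 CPM in the efferocytic ones, where the remaining cells had 47.5 and 45.9 against 11 and 12.7 CPM. Cells with at least 3 neutrophil markers and no progenitor marker were looked at for a background share, but were few and partly mitotic-high. In Experiment 1, 3 of 24 were mitotic-high without uptake and 1 of 7 with it. In Experiment 2 it was 1 of 35 and 0 of 2, so a background share could not be set. Without cells holding a UMI of other blood or fibroblast markers Ube2c fell by 0.89, and with 10% of UMIs removed as free RNA by 0.96.

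**Figure D4:**
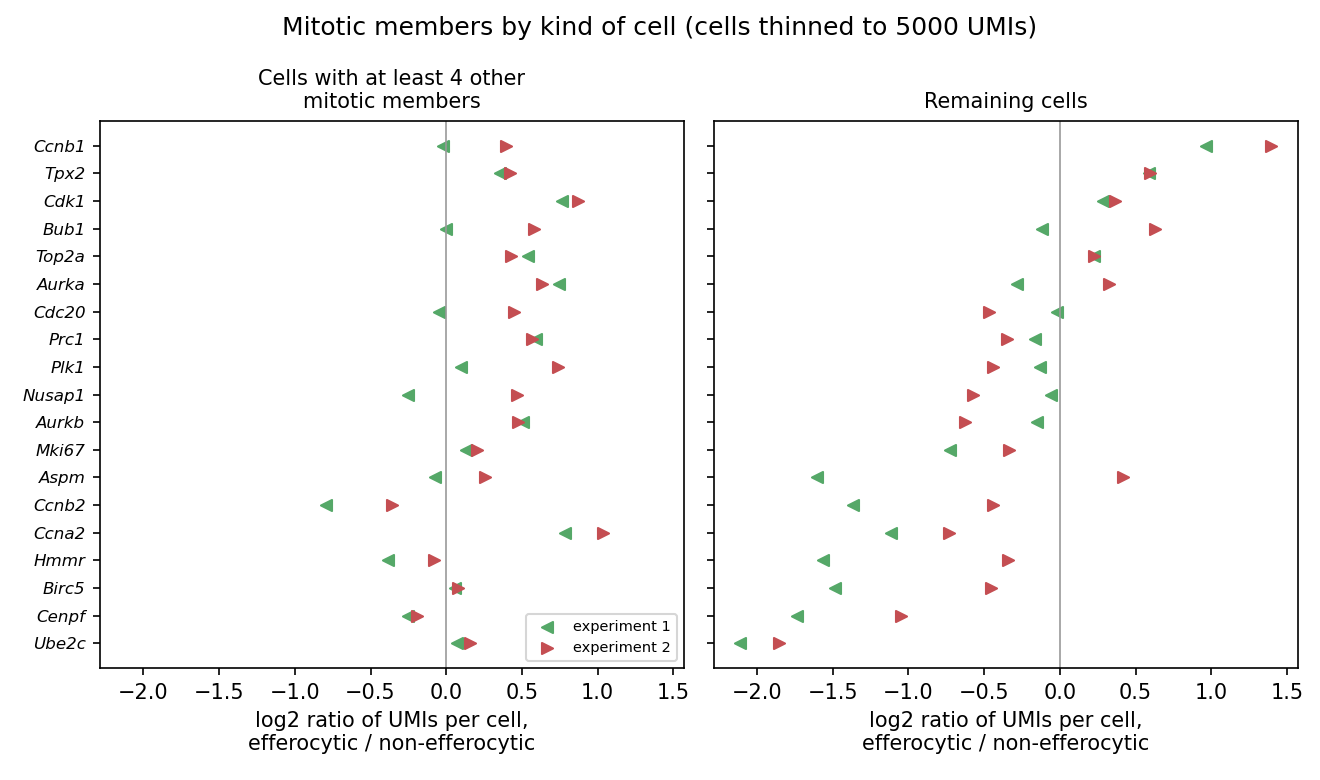
Log2 ratio, efferocytic over non-efferocytic, of UMIs per cell for each mitotic member, in cells with at least 4 other mitotic members (left) and in the remaining cells (right), after thinning to 5000 UMIs; triangles are Experiment 1 (pointing left) and Experiment 2 (pointing right). Ube2c lies near 0 on the left and at -2.11 and -1.85 on the right, whereas Ccnb1 lies at 0.96 and 1.39 on the right, where every member was below its level in free RNA.

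The cyclins differed in the same division. Ccnb1 in the remaining cells stood at 11.3 and 12.7 UMIs per 1000 cells without uptake and at 22 and 33.4 with it (log2 ratios 0.96 and 1.39), or 2.26 and 2.54 against 4.41 and 6.68 CPM. Free RNA held Ccnb1 at 9.60 and 6.55 CPM without uptake and at 11.3 and 11.0 CPM with it, above the remaining cells. The same held for all 19 mitotic members in all 4 libraries, so UMIs of these genes in the remaining cells are given as counts and not read as expression. In cells with at least 4 other mitotic members the ratios of Ccnb1 were -0.02 and 0.40. Ccnb2 was lower on both sides, at 51.5 and 60.4 against 20.02 and 44.4 UMIs per 1000 remaining cells (-1.36 and -0.44) and at 1502 and 1167 against 867 and 912 in cells with at least 4 others (-0.79 and -0.36). Ccna2 was higher in cells with at least 4 others (0.78 and 1.03) and lower in the remaining ones (-1.12 and -0.73). Cdk1 was higher on both sides. Over the 19 mitotic members the median log2 ratio was 0.07 and 0.43 in cells with at least 4 others and -0.16 and -0.35 in the remaining cells, where 15 and 12 members were lower. The remaining cells held few UMIs of some members, such as 50 and 13 of Cenpf in Experiment 1, so these ratios are coarse. The S-phase members had medians of 1.00 and 0.56 in cells with at least 4 mitotic members and of 0.19 and 0.66 in the others, where 8 and 1 of the 22 were lower. Tyms was higher in the former cells (0.58 and 0.45) and lower in the others (-0.34 and -0.07), and Tk1 had 1.54 and 0.97 against -1.07 and 0.05. In the others both genes lay below their level in free RNA in every library. Mcm2 was higher on both sides (1.17 and 0.85, then 0.93 and 1.38), as was Pcna (1.20 and 1.15, then 0.46 and 0.78). Free RNA held the S-phase members too, at 335 and 256 CPM in sum without uptake and 397 and 358 with it. Mcm2 in the others lay below its free RNA level except in the efferocytic library of Experiment 2 (10.6 against 10.2 CPM). Pcna lay above its free RNA level in every library. UMIs of S-phase members in the others are also given as counts and not read as expression.

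A further 4 lists of cell cycle genes were read beside the members, in the fit that called 19.9% of all genes higher and 19.0% lower. Of 56 other replication genes 23 rose and 1 fell, with a median of 0.32 and values from -0.32 to 0.94. The genes named from each list are the 3 with the largest called change once genes averaging under 5 CPM were set aside. Here they were Dnmt1, the maintenance DNA methyltransferase (34.3 and 34.2 against 44.8 and 53.0 CPM; 0.62 ± 0.08), the flap endonuclease Fen1 (0.59 ± 0.09) and the chromatin assembly factor subunit Chaf1b (0.60 ± 0.11). Of 58 other mitosis genes 6 rose and 7 fell, both below the shares of all genes, with a median of 0.04. The largest change of that list, in Psrc1, a spindle microtubule protein named here after its value was seen, lay just under that level, with 9.26 and 6.48 against 1.90 and 1.5 CPM (-2.09 ± 0.12, adjusted p = 5.08e-05 by edgeR). Cenpa, the centromeric histone, fell by 0.98 ± 0.10 (73.1 and 76.6 against 37.6 and 33.1 CPM), Hmgb2, a chromatin protein abundant in G2, by 0.81 ± 0.08 (138 and 135 against 74.4 and 70.8 CPM), and the cytokinesis motor Kif23 rose by 0.85 ± 0.15. In cells with fewer than 4 mitotic members Cenpa went from 266 and 291 to 135 and 84.0 UMIs per 1000 cells and Hmgb2 from 441 and 392 to 225 and 159. Their level in free RNA was not examined, so these counts are not read as expression. Of 24 histone genes 5 rose and 5 fell, close to the shares of all genes, with fitted values from -1.35 to 1.4. Most replication-dependent histone mRNAs lack a poly(A) tail, which poly(A) capture needs. Hist1h2ap rose by 0.84 ± 0.13, and the linker histones Hist1h1c and Hist1h1e fell by 0.85 ± 0.11 and 0.62 ± 0.16.

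The last list held the brakes and starters of G1. Among 15 D cyclins, their kinases, CDK inhibitors and retinoblastoma proteins, 5 rose and 7 fell. Cdkn1a, the p21 inhibitor of CDKs, fell from 333 and 242 CPM to 122 and 78.8 CPM (-1.42 ± 0.10, adjusted p = 8.97e-05 by edgeR), and Cdkn1c, the related inhibitor p57, rose from 11.8 and 11.7 to 45.3 and 65.1 CPM (2.32 ± 0.12, adjusted p = 2.95e-05 by edgeR). Cyclin D1, Ccnd1, rose by 1.07 ± 0.31, from 15.5 and 10.4 to 16.5 and 36.4 CPM, nearly all of it in Experiment 2. In cells with at least 4 mitotic members Cdkn1a had log2 ratios of -1.13 and -1.53, close to -1.45 and -1.60 in the others.

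**Figure D5:**
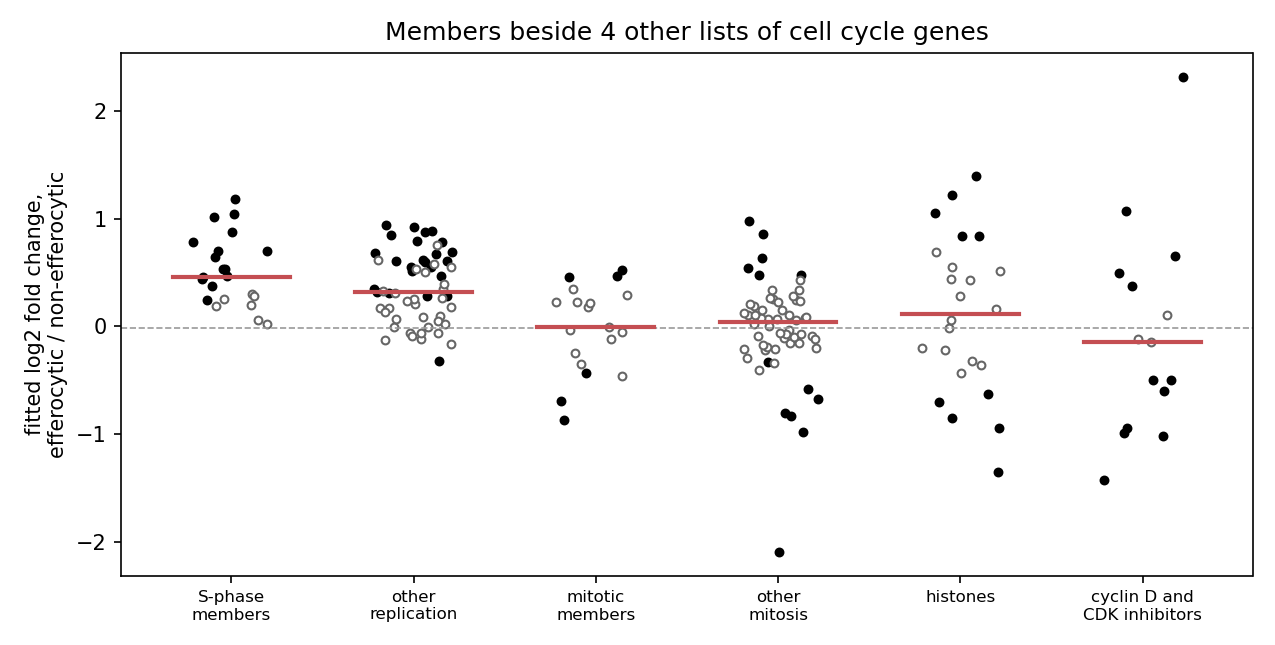
Fitted log2 fold change of each gene in the 2 member lists and the other 4 lists (filled, adjusted p under 0.05; red bar, list median; dashed line, median of all genes tested, -0.02). The 2 replication lists lie mostly above 0 (medians 0.46 and 0.32), the 2 mitosis lists are spread about 0 (-0.01 and 0.04), and the list of D cyclins and CDK inhibitors is the widest.

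Several members share sequence or position with other genes. Pcna, Tyms, Ccnb1 and Ccnb2 have named pseudogenes in the GENCODE annotation, so that their counts could lose or gain reads. Exons of Ube2c (chr2:164769898-164778822, GRCm38) overlap Tnnc2 on the opposite strand, and such overlaps exist for Ccne2, Cdc45, Tk1, Mcm7, Slbp, Cdk2, Gins2, Ccna2, Prc1, Plk1, Nusap1 and Cdc20. Whether the counting used strand is not given in the sources used here.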

How the data were processed

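Single-cell RNA sequencing counts of sorted BM macrophages were analyzed in 4 libraries. The authors mapped reads to mm10 with Cell Ranger (version 3.0.0 in the methods and the headers of Experiment 1, 3.1.0 in those of Experiment 2) and deposited UMI counts for every gene and barcode, not normalized. The authors' integration and tests on cells were not repeated.

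UMIs were added up per gene and library, and the sums were tested by edgeR 4.0.16 (TMM, filterByExpr, quasi-likelihood, experiment as a block) in R 4.3.3. A standard error is the log2 fold change divided by the square root of F. It rests on variance estimated partly from other genes and does not show how far the 2 experiments differed. For Mcm2 the log2 CPM ratios of the experiments were 0.73 and 1.39, beside a standard error of 0.15. Libraries of an experiment deviated together (correlation 0.672 over 7097 genes), and the labels name the experiment. On simulated counts over 13754 genes, edgeR called 33 of 50 genes changed by 0.5 on the log2 scale, 50 of 50 at 1, 1.5 and 2, and 7 of 13554 unchanged genes. Apart from the changed genes, the simulation gave every library the same mean profile. It used the same dispersion for all genes and no difference between experiments. These counts therefore do not give the error rate of the fit on the real libraries. Members, lists and tests were chosen with earlier results of these data known. Full statistics were given for up to 5 called members per list and direction (largest changes, mean of at least 5 CPM) and the 3 smallest changes per list, and for the 3 largest changes of each other list among called genes with that mean. Automatic doublet calls marked 0 to 5 cells per library and were not used; doublets were kept, and removal of the top scores (0.8% per 1000 cells) was an alternative. Alternatives changed the block, tool, scaling, filters, libraries, cells, thinning, free RNA and limits of the cell classes; leaving out barcodes shared between libraries, and Ube2c from the sums, was added after the data were seen. Promoter windows are from RefSeq (GRCm38.p6) and gene positions from GENCODE vM21 (GRCm38).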

Additional observations from a re-analysis of the deposited data

Results flagged for a closer look

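Members whose CPM ratio, efferocytic over non-efferocytic, had opposite signs in the 2 experiments are given here. The difference between the experiments was not tested, since each experiment holds 1 library per group. In Experiment 1 and then Experiment 2 the log2 CPM ratios of the S-phase members were -0.077 and 0.44 for Mcm4, -0.12 and 0.45 for Mcm7, -0.36 and 0.61 for Mcm10, -0.00068 and 0.17 for Tyms, and -0.31 and 0.13 for Cdc6. For the mitotic members they were -0.12 and 0.59 for Ccna2, -0.020 and 0.38 for Aurka, -0.13 and 0.36 for Top2a, -0.14 and 0.37 for Prc1, and -0.13 and 0.35 for Tpx2. They were -0.63 and 0.16 for Mki67, -0.55 and 0.23 for Cdc20, -0.53 and 0.23 for Nusap1, and -0.27 and 0.40 for Plk1. In each of these 14 genes the lower value was that of Experiment 1, as in 8931 of all 13869 genes tested. The median log2 CPM ratio of all genes was -0.16 in Experiment 1 and -0.08 in Experiment 2. Ratios from -0.16 to 0 in Experiment 1 were thus not below the median of all genes. The share of mitotic-high cells also differed in direction, at -0.57 (Experiment 1) and 0.13 (Experiment 2) as log2 ratios, but its intervals overlapped in Experiment 2. There a limit of 3 members gave -0.03, a limit of 6 gave 0.35 and thinning to 2500 UMIs gave 0.36. All these shares count Ube2c, which was detected in fewer efferocytic cells, and shares without it are not given. The granulocyte progenitor markers, which marked cells that were often mitotic-high, were lower in the efferocytic library in both experiments, from 73.8 to 23.3 CPM and from 106 to 39.7 CPM, and their part in this was not tested. Without cells that held a UMI of other blood or fibroblast markers the log2 ratios of the mitotic-high share were -0.19 and 0.33.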

How the results depend on the processing

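The direction of both member ratios and of the S-phase medians held under every alternative run. S-phase members called higher numbered 15, but 7 without the replicate block, 5 of those left by a mean of at least 10 CPM, and 6 with 10% of UMIs removed as free RNA; leaving out 1 library gave 0 to 14. Mitotic members called higher numbered 3, but 0 without the block, 9 as UMIs per cell, 1 at a mean of at least 10 CPM, 7 without cells holding other blood or fibroblast markers, 5 in thinned cells, 0 with free RNA removed, and 0 to 5 with 1 library left out. Those called lower numbered 3, but 1 without the block, 6 scaled to library totals, 0 as UMIs per cell, 1 with free RNA removed, and 0 to 2 with 1 library left out. The share of all genes called moved too: higher in 19.9%, but 9.27% without the block, 49.9% as UMIs per cell, 20.8% at a mean of at least 10 CPM and 10.5% with free RNA removed, and lower in 19.0%, 7.74%, 4.23%, 21.9% and 8.16%, with 26.7% lower scaled to library totals. Without Ube2c the log2 change of the mitotic to S-phase ratio was -0.66 and -0.45. With UMIs per cell as the scale, medians were 1.08 for S-phase and 0.61 for mitotic members, and Cenpf turned to 0.19. The log2 ratio of the mitotic-high share in Experiment 2 was 0.67 without thinning and -0.03 with a limit of 3 members. It was 0.35 with a limit of 6 and 0.36 after thinning to 2500 UMIs. That of the S-high share in Experiment 1 was 1.39 without other blood or fibroblast markers and 0.46 with a limit of 3 members. The S-high share in Experiment 2 gave 0.95 with a limit of 3 members. In the fits that left out 1 library the block was left out too, so a lone library was assumed to vary like the others. The cause of these changes was not tested. Counting error weighs most on the least counted member, Ccne2, with 125 UMIs in its lowest library.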
